A study of Mus musculus with 9 samples.

Results

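Triglyceride is built on a glycerol backbone by enzymes that act in series. Glycerol-3-phosphate acyltransferases attach the first fatty acid, 1-acylglycerol-3-phosphate acyltransferases (AGPATs) the next to give phosphatidate, lipins remove the phosphate to give diacylglycerol, and diacylglycerol acyltransferases (DGATs) add the last fatty acid. In adipose tissue this route fills the lipid droplet, and loss of AGPAT2 in people or of lipin 1 in mice causes lipodystrophy. The members described here were the genes of this route named Gpam, Agpat1, Agpat2, Agpat3, Agpat5, Lpin1, Lpin2, Lpin3, Dgat1 and Dgat2, chosen by symbol, 10 of the 28965 genes listed. All 10 passed the filter on low values, a mean of at least 10 over the libraries, which 15002 genes passed.

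Poly(A) RNA was sequenced from 3T3-L1, an established mouse line of wild-type fibroblasts committed to become adipocytes, after 24 h of differentiation. The OA_T0 group received 100 µM oleic acid bound to albumin and 5 µM T0901317, which activates the liver X receptors (LXR), nuclear receptors for oxysterols. The OA group received the albumin-bound oleic acid at 100 µM without the agonist, and the MDI group albumin as vehicle. The confluent cells of all 3 groups also received insulin at 0.1 µg/mL, isobutylmethylxanthine at 30 µg/mL and dexamethasone at 0.1 µg/mL. Each group had 3 libraries, and no group received T0901317 without oleic acid. The labels do not say whether replicates were separate cultures, so the p-values measure the spread between these libraries, which may be technical.

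Values are the normalised counts that the authors deposited, and all comparisons were made on log2(value + 1), a scale that understates the changes of low genes. Estimated depths ran from 18.0 to 29.3 M fragments for OA_T0, from 21.4 to 29.3 M for OA and from 25.6 to 59.9 M for MDI. Every value of the 10 genes was above the floor of detection, which 3 fragments set at 1.35 to 4.62 deposited units depending on the library. CT010467.1, an rRNA gene, held 3.06% of the values in OA_T0 replicate 3 and 0.649% in OA replicate 1, against 4.40% to 5.96% in the other libraries. Of 9 preadipocyte or fibroblast markers all were found, with summed levels of 242624 to 285284 in OA_T0, 285439 to 311614 in OA and 265045 to 284174 in MDI. Of 7 adipocyte markers 6 were found, with sums of 602 to 749 in OA_T0, 1843 to 2393 in OA and 304 to 463 in MDI. Nearly all of that was Fabp4, which ranged from 596 to 740.0 in OA_T0, from 1825 to 2383 in OA and from 289 to 452 in MDI. Adipoq, the adiponectin gene, did not exceed 6.76 in any library, and Cfd lay under the floor in all 9. Of 5 leukocyte markers all were found, with sums of 55.5 to 79.8 in OA_T0, 28.9 to 58.9 in OA and 34.6 to 46.2 in MDI, and 2 of the 5 lay at or under the floor in all libraries. Among them Adgre1 was at 0 in all 9, and Ptprc ranged from 1.03 to 3.08 in OA_T0, was at 0 in OA and reached 0.45 in MDI. Cd68 averaged 29.6 ± 9.34 in OA_T0, 16.5 ± 2.10 in OA and 17.2 ± 2.09 in MDI (SD, n = 3 each). The leukocyte sums, like Gpam and Agpat1, were higher in OA_T0 than in MDI without overlap, and their part in those results was not tested. By these markers the cells carried abundant precursor transcripts and almost no adiponectin RNA. Both the summed adipocyte markers and the summed preadipocyte or fibroblast markers were highest in OA.

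The RefSeq promoter table (GRCm38.p6) held 12 start sites for 7 of the 10 genes, namely Gpam, Agpat1, Agpat2, Agpat3, Lpin1, Lpin2 and Lpin3. The sequences printed are those upstream of annotated starts of Gpam, Agpat1 and Agpat3, the genes with an entry whose RNA changed between groups. They show where the annotated promoters do and do not hold exact matches to a few motifs of factors that act on lipid genes. Capitals mark motif matches, letters run 5′ to 3′ on the strand of the gene, and annotated exons were left out. The Gpam sequence is 250 bases at chr19:55127239-55127488 (minus strand), just upstream of the annotated gene. Of a further Gpam start inside the gene, the 95 bases free of exons are given, at chr19:55099633-55099727 (minus strand). The Agpat1 sequences are 250 bases each, at chr17:34605611-34605860 and chr17:34608764-34609013 (plus strand), both inside the bounds of the gene but outside every annotated exon. The Agpat3 sequence is the 91 bases free of exons at chr10:78351712-78351802 (minus strand). That start also lies inside the annotated gene, and 159 of the 250 bases before it were exonic.
Gpam, first start: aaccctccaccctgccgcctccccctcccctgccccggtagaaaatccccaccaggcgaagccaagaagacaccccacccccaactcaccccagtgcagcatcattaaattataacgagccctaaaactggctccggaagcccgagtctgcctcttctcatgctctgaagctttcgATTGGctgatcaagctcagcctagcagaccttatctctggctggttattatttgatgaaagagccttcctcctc
Gpam, next start: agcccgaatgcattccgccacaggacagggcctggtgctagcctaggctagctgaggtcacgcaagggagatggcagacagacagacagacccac
Agpat1, first start: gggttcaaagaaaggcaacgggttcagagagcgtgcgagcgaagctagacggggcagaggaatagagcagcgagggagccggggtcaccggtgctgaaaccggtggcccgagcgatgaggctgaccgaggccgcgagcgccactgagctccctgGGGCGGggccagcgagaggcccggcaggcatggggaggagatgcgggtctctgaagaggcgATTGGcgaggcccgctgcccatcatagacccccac
Agpat1, next start: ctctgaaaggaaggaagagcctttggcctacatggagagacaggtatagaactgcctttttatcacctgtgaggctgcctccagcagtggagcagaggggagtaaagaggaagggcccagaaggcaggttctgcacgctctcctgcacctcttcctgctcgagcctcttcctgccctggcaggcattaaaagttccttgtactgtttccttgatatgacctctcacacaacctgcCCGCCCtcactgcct
Agpat3: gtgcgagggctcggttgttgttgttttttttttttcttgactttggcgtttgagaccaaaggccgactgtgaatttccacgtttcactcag

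Both strands of the 250 bases before each start were searched for exact letters, and sites with a changed base were not sought. The motifs were TCACNCCAC (a sterol regulatory element, bound by SREBP), CACGTG (E-box), CCAAT (bound by NF-Y), GGGCGG (bound by Sp1), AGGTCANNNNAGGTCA (the direct repeat read by LXR) and AGGTCANAGGTCA (that read by PPAR). At the first Gpam start the search matched CCAAT on the reverse strand, from 74 to 70 bases before it. The other Gpam start had GGGCGG on the reverse strand from 16 to 11 bases before it, within exonic bases that are not printed. The first Agpat1 start had CCAAT on the reverse strand from 35 to 31 bases before it and GGGCGG from 96 to 91, and the other Agpat1 start had GGGCGG on the reverse strand from 15 to 10. Agpat3 had no match in its 250 bases. No matches overlapped in these sequences. CCAAT was present in 33.8% and GGGCGG in 32.7% of all 32851 windows of this length, so such matches were common. The sterol element was present in 1.05% of windows, the E-box in 6.02%, the LXR repeat in 0.0152% and the PPAR repeat in 0.0335%. None of the 12 start sites held an exact match to the sterol element or either repeat. Exact matches to these are so rare that their absence does not set the members apart or show that no such site is there. The E-box occurred at 1 start site, the first start of Lpin2, from 9 to 4 bases before it. A match is a description of letters and does not show a bound site.

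Each gene was first placed by its level per length, as deposited value per kb of annotated exons. Agpat1, which codes for an AGPAT of the endoplasmic reticulum, stood highest, at 721 ± 11.9 per kb in OA_T0, 614 ± 44.9 in OA and 626 ± 16.3 in MDI (SD, n = 3 each). Agpat2 and Agpat3 came next in level per kb, followed by Gpam, Lpin2, Agpat5, Dgat1, Dgat2, Lpin1 and Lpin3, in that order in both OA_T0 and MDI. In OA, Agpat3 (302 ± 36.1 per kb) and Agpat2 (294 ± 28.9 per kb) exchanged places, and their libraries overlapped. Agpat5 (87.3 to 101 per kb) and Dgat1 (64.8 to 91.9 per kb) also overlapped in OA. The other neighbours in the order did not overlap within a group. The order rests on the length used: per kb of the longest annotated transcript, Lpin2 stood above Gpam and Dgat1 above Agpat5 in all 3 groups. By that length Agpat2 (421 per kb) also stayed above Agpat3 (393 per kb) in OA.

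**Figure D1:**
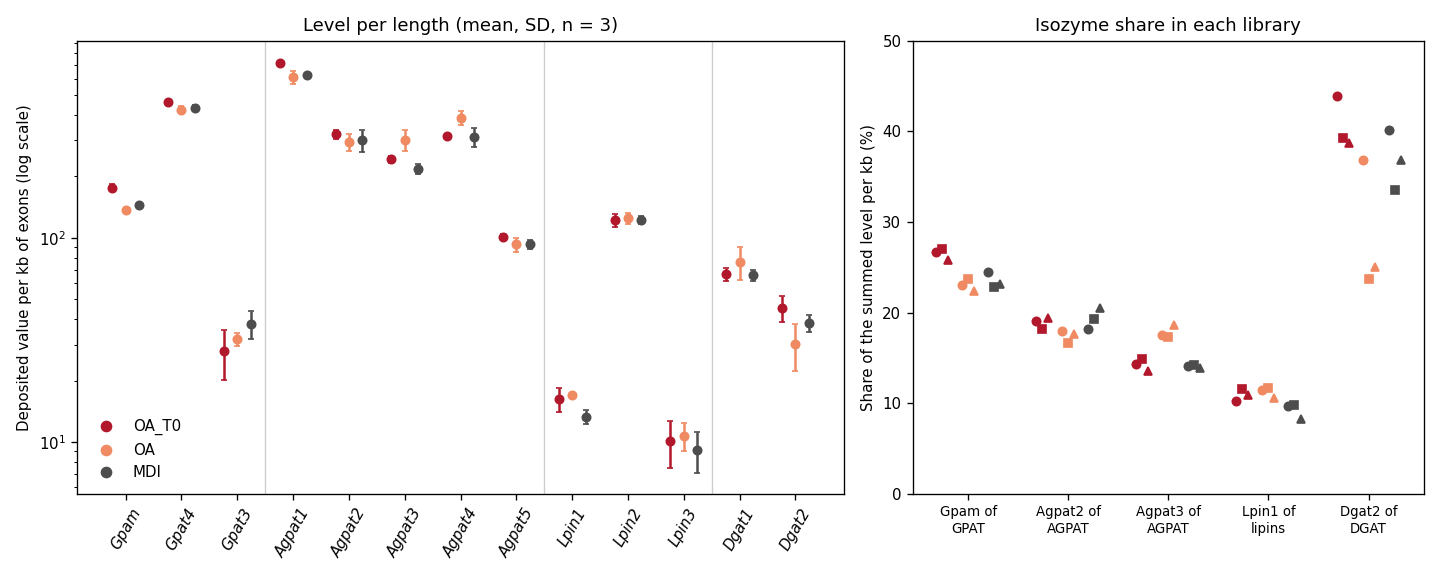
Left, mean deposited value per kb of exons (log axis, error bars SD, n = 3) of the 10 genes and of Gpat4, Gpat3 and Agpat4, with OA_T0 in red, OA in orange and MDI in grey. Right, the share of 1 gene in the summed level per kb of its enzyme step in each library, in percent (circle, square and triangle for replicates 1, 2 and 3). Agpat1 is highest in level and Lpin3 lowest, and the Dgat2 share is 38.7% to 43.9% in OA_T0 against 23.7% to 36.8% in OA.

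Gpam codes for the mitochondrial glycerol-3-phosphate acyltransferase, which starts the route. Its deposited values were 1215, 1183 and 1129 in OA_T0, 906, 908 and 909 in OA, and 972, 958 and 961 in MDI. Every OA_T0 library was above every library of OA and MDI, and every OA library was below every MDI library. Gpam rose in OA_T0 against OA by a log2 fold change of 0.37 (SE 0.061, limma adjusted p = 8.47e-04), a ratio of means of 1.30. It also rose in OA_T0 against MDI, by 0.29 (SE 0.061, limma adjusted p = 0.0208). In OA against MDI the log2 fold change was -0.086 (95% interval -0.22 to 0.043, limma adjusted p = 0.468), which did not pass although the libraries did not overlap. The SD of Gpam was 0.184% of its mean in OA, 0.753% in MDI and 3.67% in OA_T0. The separation of OA from MDI rests on those small spreads. The rise against OA kept its call without each single library, with adjusted p of at most 0.00983. The rise against MDI lost its call without replicate 1 or 2 of MDI (adjusted p = 0.0759 and 0.0976), without replicate 1 or 2 of OA_T0 (0.143 and 0.0506), and with equal library totals (0.0555).

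In bulk RNA, a change in the number of cells of a type and a change in RNA per cell cannot be told apart. Gpat3 and Gpat4, the other tested acyltransferases of this step, did not pass in any comparison. Gpat4, a form of the endoplasmic reticulum, averaged 3086 ± 55.2 in OA_T0, 2831 ± 108 in OA and 2897 ± 94.7 in MDI. Its OA_T0 libraries lay above all OA and MDI libraries, as those of Gpam did. The log2 fold change of Gpat4 was 0.12 against OA (limma adjusted p = 0.137) and 0.092 against MDI (limma adjusted p = 0.382). Per kb, Gpat4 stood at 462 ± 8.27 in OA_T0, 424 ± 16.1 in OA and 433 ± 14.2 in MDI, above Gpam at 176 ± 6.47 per kb in OA_T0, 136 ± 0.250 in OA and 145 ± 1.09 in MDI. Gpat3, another form of the endoplasmic reticulum, stood at 27.9 ± 7.63 per kb in OA_T0, 31.9 ± 2.28 in OA and 38.0 ± 5.94 in MDI. Gpat2 was listed at 0 in all libraries. The summed level per kb of the step was 656 to 684 in OA_T0, 575 to 610.5 in OA and 596 to 631 in MDI, with OA_T0 above both others. From OA to OA_T0 the mean per kb went from 424 to 462 for Gpat4, from 136 to 176 for Gpam and from 31.9 to 27.9 for Gpat3. The share of Gpam in the summed level per kb of this step was 26.6%, 27.1% and 25.8% in OA_T0, 23.1%, 23.7% and 22.3% in OA, and 24.5%, 22.8% and 23.2% in MDI. The OA_T0 share was 3.45 percentage points above OA and 2.99 above MDI, without overlap, each with p = 0.1 by an exact two-sided permutation test. That is the smallest p that 3 libraries against 3 can give.

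Agpat3 codes for an AGPAT that also acts on other lysophospholipids. Its deposited values were 1922, 1936 and 1807 in OA_T0, 2231, 2152 and 2674 in OA, and 1597, 1697 and 1795 in MDI. The groups did not overlap in any comparison: OA was highest, MDI lowest, and OA_T0 lay between. Agpat3 rose in OA against MDI by a log2 fold change of 0.47 (SE 0.078, limma adjusted p = 0.00203), a ratio of means of 1.39. It fell in OA_T0 against OA by 0.31 on the log2 scale (SE 0.078, limma adjusted p = 0.0145). In OA_T0 against MDI the log2 fold change was 0.16 (95% interval -0.01 to 0.32, limma adjusted p = 0.297), which did not pass. Both comparisons with a call use the OA libraries, so the rise and the fall are not independent of one another. Both calls held without each single library, with adjusted p of at most 0.0155 for the rise and 0.0499 for the fall. The fall was not called when OA replicate 1 and OA_T0 replicate 3, the libraries with low CT010467.1, were both left out (adjusted p = 0.0643), nor did either call hold when genes with low values were also tested (adjusted p = 0.0733 for the rise and 0.119 for the fall). The summed adipocyte markers, which were nearly all Fabp4, were highest in OA, as Agpat3 was. The summed preadipocyte or fibroblast markers were also highest in OA. The part of the markers in the result was not tested.

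Agpat1 had deposited values of 2166, 2127 and 2199 in OA_T0, 1803, 1731 and 1992 in OA, and 1852, 1851 and 1936 in MDI. The OA_T0 libraries lay above all the others, while OA and MDI overlapped. Agpat1 rose in OA_T0 against OA by a log2 fold change of 0.23 (SE 0.062, limma adjusted p = 0.0190), a ratio of means of 1.17. In OA_T0 against MDI it was 0.20 (95% interval 0.072 to 0.33, limma adjusted p = 0.0993) and did not pass, and in OA against MDI it was -0.031 (-0.16 to 0.10, limma adjusted p = 0.830). The call against OA was lost without replicate 1 or 2 of OA (adjusted p = 0.0840 and 0.0901), without replicate 1 or 3 of OA_T0 (0.0746 and 0.0540), and when low genes were also tested (0.0601). Without both OA replicate 1 and OA_T0 replicate 3 the adjusted p was 0.167.

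Agpat2, which codes for the AGPAT of the human lipodystrophy, did not pass in any comparison. Its deposited values ran from 647 to 707 in OA_T0, from 566 to 689 in OA and from 565 to 723 in MDI, and all groups overlapped. The 95% intervals of its log2 fold change were -0.078 to 0.34 for OA_T0 against OA, -0.10 to 0.31 for OA_T0 against MDI and -0.23 to 0.18 for OA against MDI. Agpat5, a mitochondrial member of the family, ran from 1056 to 1123 in OA_T0, from 941 to 1092 in OA and from 951 to 1052 in MDI. Its OA_T0 libraries were above all MDI libraries, but the log2 fold change of 0.13 did not pass (95% interval -0.028 to 0.28, limma adjusted p = 0.367). An antisense gene, Gm35934, covers 18.9% of the exonic bases of Agpat5. The strand setting of the authors' counting is not given in the sources used here, so reads of both could not be told apart; Agpat1, Agpat2 and Agpat3 share 101, 64 and 16 exonic bases with genes on the opposite strand.

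Agpat4, a further AGPAT that is not among the 10 genes, was also highest in OA. Its deposited values were 866, 853 and 844 in OA_T0, 987, 1012 and 1137 in OA, and 765, 826 and 944 in MDI. OA was above both other groups without overlap, while OA_T0 and MDI overlapped. It rose in OA against MDI by a log2 fold change of 0.31 (SE 0.083, limma adjusted p = 0.0362). It fell in OA_T0 against OA by 0.29 on the log2 scale (limma adjusted p = 0.0295). Both comparisons use the OA libraries, so the rise and the fall of Agpat4 are not independent. In OA_T0 against MDI the log2 fold change was 0.021 (limma adjusted p = 0.918). The call of the rise was lost without any 1 of the OA libraries (adjusted p = 0.0576, 0.0622 and 0.127), without replicate 1 or 2 of MDI (0.162 and 0.144) and without replicate 1 of OA_T0 (0.0573). That of the fall was lost without replicate 2 or 3 of OA (0.0545 and 0.0871) and without any 1 of the OA_T0 libraries (0.0860, 0.0503 and 0.0653). The summed level per kb of Agpat1 to Agpat5 was 1675 to 1721 in OA_T0, 1595 to 1839 in OA and 1459 to 1658 in MDI. OA_T0 lay above MDI without overlap, and OA overlapped both other groups. In this sum, the share of Agpat3, picked after its values were seen, was 14.3%, 14.8% and 13.6% in OA_T0, 17.5%, 17.3% and 18.7% in OA, and 14.1%, 14.2% and 13.9% in MDI. The share of Agpat2 was 18.9% ± 0.645 in OA_T0, 17.4% ± 0.657 in OA and 19.3% ± 1.15 in MDI (SD, n = 3 each). The difference was -1.92 points for OA against MDI and 1.46 points for OA_T0 against OA, both without overlap and with p = 0.1 by the exact permutation test.

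**Figure D2:**
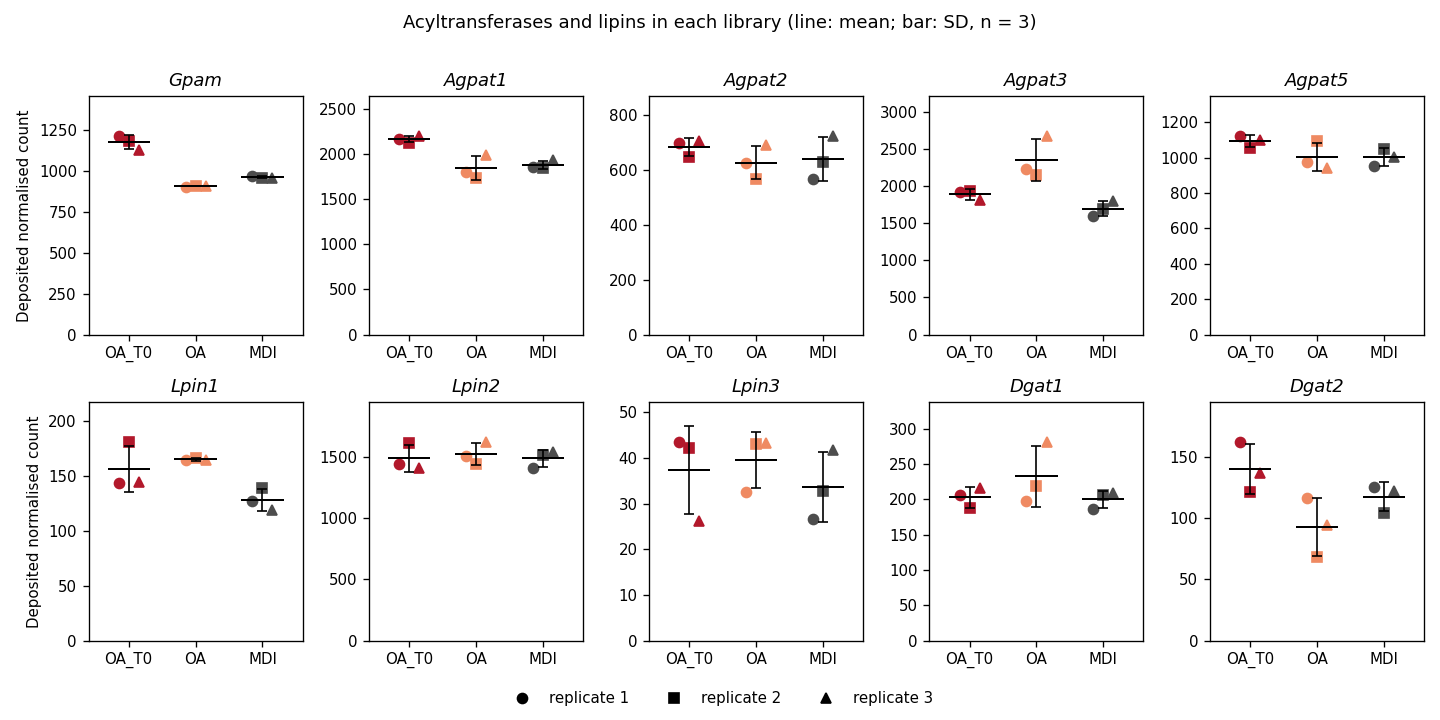
Deposited normalised count of each of the 10 genes in the 9 libraries, with OA_T0 left, OA in the middle and MDI right. Symbols are libraries (circle, square and triangle for replicates 1, 2 and 3), lines are means and bars are SD with n = 3; each vertical axis starts at 0. Gpam is highest in OA_T0 (1129 to 1215) and Agpat3 in OA (2152 to 2674).

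The lipins are phosphatidate phosphatases that also act with transcription factors in the nucleus, and Lpin1 is the form best known from adipocytes. Lpin1 had deposited values of 144, 181 and 145 in OA_T0, 164, 166 and 165 in OA, and 127, 139 and 119 in MDI. All libraries of OA_T0 and OA were above all MDI libraries, and OA_T0 and OA overlapped. No difference passed: the log2 fold change was 0.36 for OA against MDI (95% interval 0.079 to 0.64, limma adjusted p = 0.125), 0.28 for OA_T0 against MDI (-0.0062 to 0.56, adjusted p = 0.280) and -0.085 for OA_T0 against OA (-0.37 to 0.20, adjusted p = 0.712). Lpin2 made up most of the lipin level per kb, with 81.4% to 83.9% in OA_T0, 80.4% to 82.7% in OA and 84.2% to 85.0% in MDI. Its deposited values ran from 1410 to 1615 in OA_T0, from 1445 to 1625 in OA and from 1414 to 1545 in MDI. Lpin2 was not called, and the 95% intervals of its log2 fold change were -0.18 to 0.12 for OA_T0 against OA, -0.15 to 0.15 for OA_T0 against MDI and -0.12 to 0.18 for OA against MDI. Lpin3, the least abundant, ran from 26.2 to 43.5 in OA_T0, from 32.4 to 43.2 in OA and from 26.6 to 41.7 in MDI. Its intervals were wide, from -0.68 to 0.48 for OA_T0 against OA, from -0.45 to 0.71 for OA_T0 against MDI and from -0.34 to 0.82 for OA against MDI.

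The share of Lpin1 in the summed lipin level per kb was 10.3%, 11.5% and 10.9% in OA_T0, 11.4%, 11.7% and 10.5% in OA, and 9.66%, 9.77% and 8.24% in MDI. It was 2.00 percentage points higher in OA than in MDI and 1.68 points higher in OA_T0 than in MDI, without overlap and with p = 0.1 by the exact permutation test. The genes of the phosphatase that activates lipins, Ctdnep1 and its partner Cnep1r1, did not pass in any comparison. The summed lipin level per kb averaged 148 ± 12.7 in OA_T0, 153 ± 7.85 in OA and 144 ± 7.50 in MDI, and the libraries overlapped.

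Dgat1 and Dgat2 code for unrelated enzymes that both make triglyceride from diacylglycerol. Dgat2 had deposited values of 162, 122 and 137 in OA_T0, 116, 68.4 and 94.3 in OA, and 126, 104 and 123 in MDI. All OA_T0 libraries were above all OA libraries, while MDI overlapped both. Dgat2 rose in OA_T0 against OA by a log2 fold change of 0.61 (SE 0.19, limma adjusted p = 0.0399), a ratio of means of 1.51. For OA against MDI it was -0.36 (95% interval -0.77 to 0.036, limma adjusted p = 0.289) and for OA_T0 against MDI 0.25 (-0.15 to 0.65, adjusted p = 0.508), and neither passed. The call did not survive leaving out replicate 1 or 2 of MDI (adjusted p = 0.0526 and 0.0533), replicate 2 or 3 of OA (0.173 and 0.0576), or replicate 1 or 3 of OA_T0 (0.178 and 0.0691). The log2 fold change was 0.41 without replicate 2 of OA, the library with the lowest Dgat2 value. It was also lost with equal library totals (0.0573), in a fit of OA_T0 and OA alone (0.0628) and when low genes were also tested (0.184).

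Dgat1 ran from 187 to 216 in OA_T0, from 198 to 281 in OA and from 186 to 208 in MDI, with overlap in each comparison and no call. Its 95% intervals were -0.47 to 0.10 for OA_T0 against OA, -0.27 to 0.30 for OA_T0 against MDI and -0.082 to 0.49 for OA against MDI. The share of Dgat2 in the summed level per kb of both genes was 43.9%, 39.2% and 38.7% in OA_T0, 36.8%, 23.7% and 25.0% in OA, and 40.1%, 33.5% and 36.9% in MDI. It was 12.1 percentage points higher in OA_T0 than in OA, without overlap (exact permutation p = 0.1), while the difference of OA against MDI was -8.35 points, with overlap (exact permutation p = 0.2). The sum itself averaged 112 ± 10.1 per kb in OA_T0, 106 ± 14.8 in OA and 104 ± 3.79 in MDI.

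**Figure D3:**
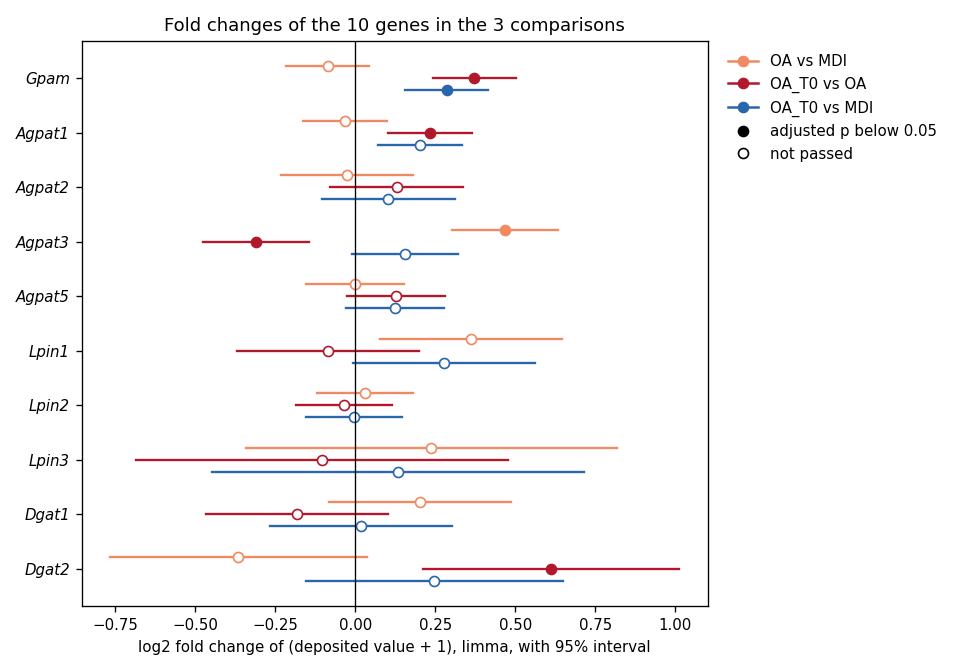
Log2 fold change of (deposited value + 1) with 95% interval from limma for the 10 genes in OA vs MDI (orange), OA_T0 vs OA (red) and OA_T0 vs MDI (blue); filled points have adjusted p below 0.05. Gpam, Agpat1 and Dgat2 are filled to the right of 0 in OA_T0 vs OA, where Agpat3 is filled to the left.

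Counted together, 1 of the 10 genes rose and 0 fell in OA against MDI, by limma at an adjusted p below 0.05. Over all tested genes 6.79% passed in that comparison, 3.43% higher and 3.36% lower. At an unadjusted p below 0.05, 2 members were higher and 0 lower. The share of all tested genes at that unadjusted threshold was not computed, so unadjusted counts here and below have no yardstick. In OA_T0 against OA 3 rose and 1 fell, where 15.1% of all tested genes passed, 8.27% higher and 6.84% lower. The unadjusted counts there were also 3 and 1. In OA_T0 against MDI 1 rose and 0 fell, where 2.61% of all tested genes passed, 1.25% higher and 1.36% lower, and at an unadjusted p below 0.05 there were 2 and 0. The count of 3 was 1 when replicate 2 of OA or replicate 1 or 3 of OA_T0 was left out, and the count of 1 in OA_T0 against MDI was 0 when replicate 1 or 2 of either group was. Groups did not overlap for 4 of 10 members in OA_T0 against OA (32.1% of all tested genes), 5 in OA_T0 against MDI (23.5%) and 3 in OA against MDI (26.1%). The median log2 fold change of the members was 0.046 in OA_T0 against OA (-0.0023 over all tested genes), 0.14 in OA_T0 against MDI (0.019) and 0.015 in OA against MDI (0.014). The calls fell on Gpam, Agpat1, Agpat3 and Dgat2, and the largest ratio of means among them was 1.51.

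A list of 44 further genes around the route was read from the same fit: 42 were found, 41 under the listed symbol, and 35 were tested. In OA against MDI 3 of the 35 rose and 0 fell, where 3.43% of all tested genes rose and 3.36% fell. At an unadjusted p below 0.05, 6 of the 35 were higher and 2 lower, again without a share over all tested genes. The 3 that rose at the adjusted threshold were Agpat4, Plpp3 and Hilpda. Plpp3 codes for a phosphatase of lipid phosphates at the cell surface, and Hilpda for an inhibitor of adipose triglyceride lipase. Plpp3 stood at 6008 ± 312 in OA and 4860 ± 353 in MDI (SD, n = 3 each), a log2 fold change of 0.31 (limma adjusted p = 0.00797). Hilpda stood at 471 ± 41.2 in OA and 336 ± 13.6 in MDI, a log2 fold change of 0.48 (limma adjusted p = 0.0135). Plpp3 lost its call without replicate 2 of MDI (adjusted p = 0.0610), and Hilpda without replicate 1 or 2 of MDI (0.0610 and 0.0514) or replicate 3 of OA (0.0571). The number of list genes that rose was 1 without replicate 1 of MDI or replicate 3 of OA and 0 without replicate 2 of MDI. With replicate 2 or 3 of OA left out, 1 list gene fell.

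In OA_T0 against OA 1 of the 35 rose and 2 fell, where 8.27% of all tested genes rose and 6.84% fell. At an unadjusted p below 0.05, 7 of the 35 were higher and 4 lower. Gk, glycerol kinase, which supplies glycerol 3-phosphate, stood at 715, 639 and 646 in OA_T0 and at 512, 584 and 439 in OA, without overlap. The rise in Gk was 0.39 in log2 fold change (SE 0.097, limma adjusted p = 0.0138), and its call was lost without replicate 1 of OA_T0 (adjusted p = 0.0839). Plpp3 stood at 4021, 4235 and 4065 in OA_T0 and at 6050, 5678 and 6297 in OA, and fell by 0.55 on the log2 scale (SE 0.062, limma adjusted p = 3.06e-05). Agpat4 was the other gene that fell. For Plpp3 as for Agpat4, the rise against MDI and this fall share the OA libraries and are not independent. List genes that rose numbered 0 without replicate 1 of OA_T0 and 2 without replicate 3 of OA, and those that fell numbered 1 without replicate 2 or 3 of either group. In OA_T0 against MDI 0 of the 35 rose and 0 fell by limma, where 2.61% of all tested genes passed. At an unadjusted p below 0.05, 2 of the 35 were higher and 2 lower in that comparison. Plpp3, at -0.24 in log2 fold change there (limma adjusted p = 0.0559), passed when replicate 3 of MDI or of OA was left out (0.0441 and 0.0429), and 1 list gene rose without replicate 3 of OA_T0. By role, the 9 tested genes that use diacylglycerol for phospholipids or return it to phosphatidate gave 0 calls in any comparison. Of glycerol 3-phosphate supply 1 of 5 tested genes was called in OA_T0 against OA, and of droplet assembly 0 of 4. Of the genes listed around phosphatidate, which include the Plpp phosphatases, 1 of 9 was called there, namely Plpp3. Of all tested genes 15.1% passed there, 6.79% in OA against MDI and 2.61% in OA_T0 against MDI, so counts of 0 or 1 in groups this small do not set a role apart. The median log2 fold change of the 35 was -0.014 in OA_T0 against OA (-0.0023 over all tested genes), 0.079 in OA_T0 against MDI (0.019) and 0.033 in OA against MDI (0.014).

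**Figure D4:**
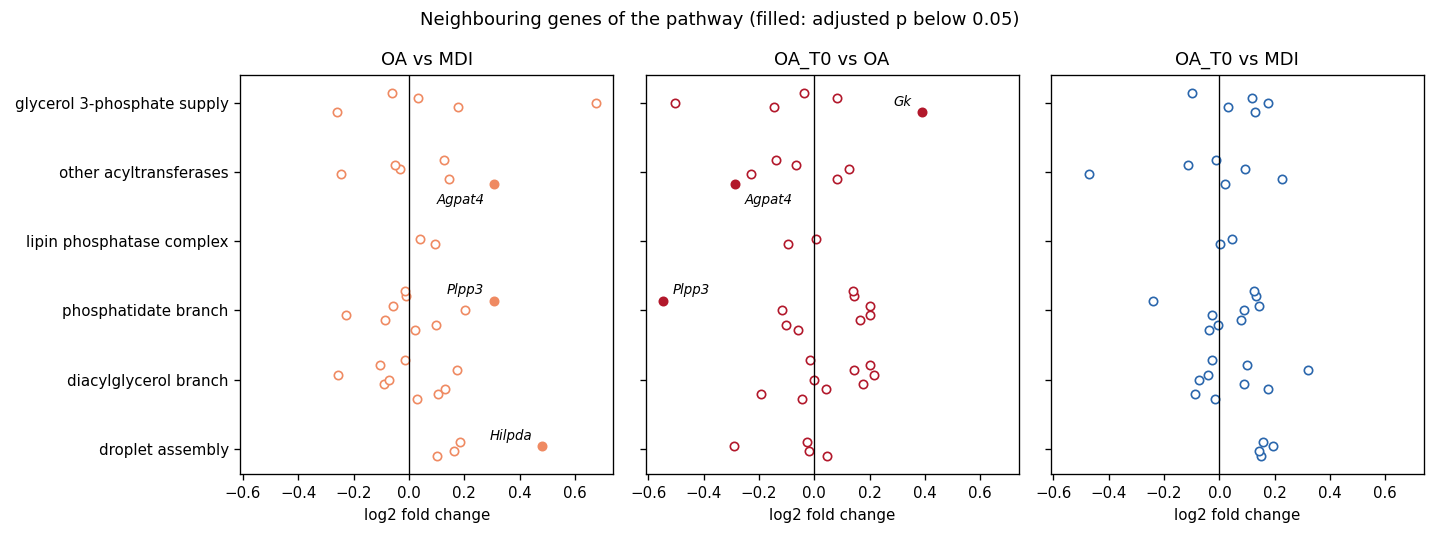
Log2 fold changes of the 35 tested neighbouring genes by role in OA vs MDI, OA_T0 vs OA and OA_T0 vs MDI; filled points have adjusted p below 0.05 and carry their symbol. Plpp3 and Agpat4 are filled in OA vs MDI to the right of 0 and in OA_T0 vs OA to the left. Those comparisons share the OA libraries and are not independent. No point is filled in OA_T0 vs MDI.

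The genes most like Gpam and Agpat3, the members with the smallest adjusted p, were found by the root mean square difference of log2 values, each centred on its own mean over the 9 libraries. For Gpam they were Gpr137, a lysosomal membrane protein gene (0.044), Htra2, a mitochondrial protease gene (0.045), and Rpl10a, a ribosomal protein gene (0.048), where the SD of Gpam itself was 0.17. Htra2 averaged 1585 in OA_T0, 1183 in OA and 1282 in MDI. For Agpat3 they were Acadvl, the very long chain acyl-CoA dehydrogenase gene (0.051), B3gnt9, a glycosyltransferase gene (0.056), and Pgm1, a phosphoglucomutase gene (0.057), where the SD of Agpat3 was 0.23. Acadvl averaged 1757 in OA_T0, 2170.3 in OA and 1574 in MDI. These are the nearest of 15002 tested genes and carry no test.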

How the data were processed

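RNA was measured in 9 libraries, 3 each for OA_T0, OA and MDI. The authors deposited 1 signal value per gene and library: counts that are not whole numbers, divided by 1 factor per library. Per the submitters' processing notes, CASAVA 1.8.2, TopHat, HTSeq, DESeq2 and the genome build mm9 were used, with no role or order given. The most frequent low value of a library was taken as the worth of 1 fragment, and the total divided by it as the estimated depth; floors of 3 fragments cover counting error only. Whole reads were not recovered, so no count test was run.

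Groups were compared on log2(value + 1) with limma 3.58.1 under R 4.3.3, with an intensity trend, all 9 libraries in 1 fit, and a filter at a mean of 10. P-values were two-sided and adjusted by the Benjamini-Hochberg method over all 15002 tested genes within each comparison, with 0.05 as the threshold. Each result was recomputed with each library left out, with the replicate block, with other scalings (quantiles, or totals made equal), other filters (none, or a mean of 50), other pseudocounts (0.5 or 5), robust variances, and 2 groups per fit in place of 3. The fit was run on simulated data with known changes and independent noise in each library. Those changes were larger than most called on members here, so the run is no support for these calls. The members and the lists were chosen with earlier results of these data known. Named were all 10 members, the passing genes of the list around them (up to 4 per role and comparison), and the 3 genes most like each of the 2 members with the smallest adjusted p. Lengths are unions of GENCODE M21 exons (GRCm38), used as lengths only because the build differs from mm9; levels per length compare genes within a library. Shares were compared by exact two-sided permutation tests over libraries. Promoters are from RefSeq on GRCm38.p6. Genes of the lists that were not found were not analysed here.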

Additional observations from a re-analysis of the deposited data

How the results depend on the processing

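Of the calls on members, that of Gpam in OA_T0 against OA held in every alternative run. Testing the genes with low values too gave 353 genes called in OA against MDI, 1124 in OA_T0 against OA and 83 in OA_T0 against MDI, against 1018, 2266 and 392 with the filter; of these, 286, 1002 and 54 were called both ways. Members and list genes that rose in OA against MDI were then 0 and 0, and in OA_T0 against OA 1 member and 0 list genes rose while 0 members and 1 list gene fell. Quantile normalisation gave 1 list gene lower in OA against MDI, and equal totals gave 0 members higher in OA_T0 against MDI. Without both OA replicate 1 and OA_T0 replicate 3, a choice made after seeing the data, OA_T0 against OA had 926 calls, with 0 members and 1 list gene lower and 0 list genes higher. A filter at a mean of 50 gave no value for Lpin3.

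With 1 library left out, calls numbered 366 (without MDI replicate 2) to 1268 in OA against MDI, 1054 (without OA_T0 replicate 1) to 2530 in OA_T0 against OA and 110 (without OA_T0 replicate 1) to 500 in OA_T0 against MDI. Members higher ranged from 1 to 3 in OA_T0 against OA and from 0 to 1 in OA_T0 against MDI. List genes higher ranged from 0 to 4 in OA against MDI, from 0 to 2 in OA_T0 against OA and from 0 to 1 in OA_T0 against MDI, and those lower from 0 to 1, from 1 to 2 and from 0 to 1. The difference in share ranged from -0.81 to 0.038 points for Gpam in OA against MDI, from -1.03 to 0.12 for Agpat2 in OA_T0 against MDI and from -0.65 to 0.0093 for Lpin1 in OA_T0 against OA.

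Signs turned in genes that were not called. In OA against MDI, log2 fold changes with 1 library left out ran from -0.089 to 0.012 for Agpat1, -0.11 to 0.067 for Agpat2, -0.064 to 0.043 for Agpat5 and -0.015 to 0.070 for Lpin2. In OA_T0 against OA they ran from -0.093 to 0.011 for Lpin2 and -0.24 to 0.13 for Lpin3. In OA_T0 against MDI they ran from -0.062 to 0.036 for Lpin2, -0.019 to 0.36 for Lpin3, -0.032 to 0.076 for Dgat1 and -0.048 to 0.10 for Agpat4. Quantile normalisation gave 0.0047 for Agpat5 in OA against MDI, 0.037 for Lpin3 in OA_T0 against OA and -0.0081 for Agpat4 in OA_T0 against MDI. Equal totals gave -0.016 for Dgat1 and -0.014 for Agpat4 in OA_T0 against MDI. Without both libraries, Agpat5 was 0.018 in OA against MDI, and Lpin2 0.036 and Dgat1 -0.027 in OA_T0 against MDI. The cause was not tested.

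Deviations of libraries with the same replicate number correlated between -0.256 and 0.259, and those with different numbers between -0.23 and 0.25. With so few libraries a group, these values do not decide whether the numbers pair libraries. With replicate number as a block, 850 genes were called in OA against MDI, 2011 in OA_T0 against OA and 339 in OA_T0 against MDI, and no call on a member or list gene changed. Among the members Lpin3 had the lowest values and the widest intervals.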
